A study of Homo sapiens with 24 samples.

Results

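The matrix metalloproteinases (MMPs) and their inhibitors described here are 10 of the 60675 genes counted in RNA-seq libraries of ACHN and HK2 cells: MMP1, MMP2, MMP3, MMP7, MMP9, MMP10, MMP13 and MMP14, and the tissue inhibitors TIMP2 and TIMP3. They were chosen by symbol as a family, and MMP1 was picked from the same HK2 libraries for the size of its interaction there, so its HK2 values are a description with no test. The series holds 24 libraries of total RNA in 8 groups of 3, with 4 groups in each line. The label shNC marks the control hairpin, shKDM5C and shYY1 mark knockdown of the histone H3K4 demethylase KDM5C and of the zinc finger transcription factor YY1, and Dsh marks the knockdown of both. All groups are stable lentiviral lines on the pLKO.1 backbone grown under the same medium. The study's methods state that Dsh cells came from YY1-depleted cells infected again with a GFP-carrying KDM5C hairpin plasmid and then screened for puromycin resistance and fluorescence, so the second infection and the screen cannot be told apart from the joint loss of both proteins. The labels do not say which of the study's hairpins each line carries, or that the 3 repeats of a group are separate cultures, and p-values therefore measure the spread between repeats, which may be technical.

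MMPs are zinc-dependent proteases that cut the extracellular matrix and proteins of the cell surface, and most are made as inactive proenzymes. TIMPs bind the active site of MMPs, and TIMP2 also takes part with the membrane protease MMP14 in the activation of proMMP2. ACHN is a renal adenocarcinoma line, which the labels call ccRCC, and HK2 (HK-2) is an immortalised line from human proximal tubule epithelium. Several MMP genes, MMP1, MMP3, MMP7, MMP10 and MMP13 among them, lie in one cluster on chromosome 11, and promoters of this cluster are known to be driven by AP-1 and ETS factors.

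The stretches before the start sites of MMP7, MMP10 and MMP14 are shown because MMP7 and MMP14 are tested members with changes in several comparisons and MMP10 is the cluster gene next to MMP1. RefSeq windows (GRCh38.p14) were given for 4 of the 10 members. Each is written 5′ to 3′ on the gene's own strand and ends before the first base that either annotation assigns to the gene. MMP7 is chr11:102530754-102530997 (minus strand), MMP10 is chr11:102780629-102780878 (minus strand) and MMP14 is chr14:22836335-22836556 (plus strand). Capitals mark matches, on either strand, to AP-1 (TGANTCA), a YY1 core (CCATNTT), the TATA box (TATAAA) and PEA3/ETS (AGGAAG).
MMP7: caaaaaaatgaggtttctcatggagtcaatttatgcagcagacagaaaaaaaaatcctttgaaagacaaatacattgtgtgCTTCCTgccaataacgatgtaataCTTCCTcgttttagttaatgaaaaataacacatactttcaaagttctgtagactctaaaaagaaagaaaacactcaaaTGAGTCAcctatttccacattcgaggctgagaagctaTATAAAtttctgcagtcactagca
MMP10: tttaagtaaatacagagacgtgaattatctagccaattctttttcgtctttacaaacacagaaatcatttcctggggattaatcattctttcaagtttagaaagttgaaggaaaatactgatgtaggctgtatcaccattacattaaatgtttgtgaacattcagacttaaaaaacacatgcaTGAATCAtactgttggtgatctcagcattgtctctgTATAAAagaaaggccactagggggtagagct
MMP14: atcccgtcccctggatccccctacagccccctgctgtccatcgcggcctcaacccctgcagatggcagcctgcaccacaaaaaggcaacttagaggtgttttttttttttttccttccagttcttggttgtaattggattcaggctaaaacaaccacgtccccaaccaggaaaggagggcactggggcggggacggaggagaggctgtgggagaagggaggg
The AP-1 letters lay 67 to 61 bases before the RefSeq start in both MMP7 and MMP10. A TATA box followed, 30 to 25 bases before the start in MMP7 and 31 to 26 in MMP10. MMP7 also held the PEA3/ETS letters on the other strand at 169 to 164 and at 145 to 140 bases before the start. No match overlapped a match to another motif, and the MMP14 window held none of the 4 motifs. The AP-1 letters are their own reverse complement, so any match to them reads as the motif on both strands. Of all 35116 RefSeq windows of 250 bases, 6.57% held the AP-1 letters, 11.6% the YY1 core, 10.7% the TATA box and 28.7% the PEA3/ETS letters. A match is a run of letters and no evidence of binding, and a window without one says nothing about the factor.

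The libraries held between 15926561 and 24272298 counts. KDM5C averaged 70.3 CPM (counts scaled to a common library size with TMM factors over all libraries) in ACHN shNC against 42.8 in shKDM5C and 40.4 in Dsh, and in HK2 192 against 56.9 and 68.0. YY1 averaged 138 CPM in ACHN shNC against 76.4 in shYY1 and 96.6 in Dsh, and in HK2 209 against 64.1 and 74.0. Each target was thus lower in every group labelled as its knockdown, with changes of -0.73 and -1.74 (adjusted p = 1.1e-12 and 0.018) for KDM5C with shKDM5C and of -0.88 and -1.70 (1.7e-19 and 2.2e-15) for YY1 with shYY1, on the log2 scale in ACHN and HK2 and by edgeR. In shYY1 KDM5C averaged 90.2 CPM in ACHN and 244 in HK2, with every library above the shNC libraries of its line. Repeat 1 of HK2 shKDM5C stood apart: the chi-square per degree of freedom of its counts was 129 against repeat 2 and 123 against repeat 3, while repeats 2 and 3 gave 3.2 between them. Without it KDM5C with shKDM5C gave -1.51 in HK2 (adjusted p = 1.3e-16), and the values of members and the counts of lists that use shKDM5C in HK2 are given below with and without it. The proximal tubule markers LRP2, CUBN, SLC34A1 and AQP1 summed to between 0.314 and 1.76 CPM in all groups, HK2 included, while the epithelial list (EPCAM, CDH1, KRT8, KRT18, KRT19) summed to 2471 to 2587 CPM in HK2 shNC and 2347 to 2411 in ACHN shNC. The clear cell markers CA9, NDUFA4L2 and ANGPTL4 summed to 6.23 to 7.74 CPM in ACHN shNC, so in shNC neither line showed the defining markers of its labelled cell type at more than a low level. The kidney lineage genes PAX2, PAX8, CDH6 and CDH16 summed to 585 to 598 CPM in ACHN shNC and 926 to 943 in HK2 shNC.

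MMP1, the interstitial collagenase that cuts fibrillar collagen, is on the minus strand at chr11:102789920-102798160 (GRCh38, Ensembl release 84) with 10 exon blocks. In HK2 its CPM was 6.61, 6.72 and 8.25 in shNC, 7.26, 5.13 and 5.18 in shKDM5C, 9.57, 10.0 and 10.4 in shYY1, and 172, 157 and 173 in Dsh. The Dsh libraries lay far above the other 9, shYY1 lay above shNC without overlap, and shKDM5C overlapped shNC. The log2 fold change against shNC was -0.28 ± 0.22 (SE, n = 3 against 3) in shKDM5C (-0.49 without repeat 1), 0.48 ± 0.14 in shYY1 and 4.54 ± 0.08 in Dsh, given with no test. The counts behind the Dsh value were 8665 against 401, a scaled ratio of 23.2. No interval is given for it, because MMP1 was picked from these libraries. In ACHN the same gene gave 0, 3 and 0 counts in shNC, 2, 1 and 1 in shKDM5C, 4, 1 and 0 in shYY1, and 7, 4 and 10 in Dsh. Every Dsh library of ACHN held at least as many as the highest library of the other groups, and the ratio of 21 counts to 3 in shNC was 6.35 with a counting interval of 1.89 to 33.2. These ACHN counts did not pass the filter on low counts and were not tested. In bulk RNA a larger share of cells with a transcript and more of it per cell cannot be told apart.

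An RNA gene on the other strand, WTAPP1, spans MMP1 and shares 150 exonic bases with it, and since the counting was not set to use strand, reads from the shared bases cannot be assigned to either. WTAPP1 averaged 0.11 CPM in HK2 shNC and 0.097 in HK2 Dsh. The leukocyte list (PTPRC, CD14, CSF1R, AIF1, LYZ) summed to 7.38 to 8.65 CPM in HK2 shNC and 9.86 to 12.1 in HK2 Dsh. Within it AIF1 was at 0 in both groups and PTPRC at 0.12 and 0.078 CPM, CD14 averaged 6.78 and 6.32 CPM, and CSF1R averaged 0.99 and 4.22. The fibroblast list (COL1A1, COL1A2, COL3A1, DCN, LUM, PDGFRB) summed to 42.1 to 43.9 CPM in HK2 shNC and 93.2 to 102 in HK2 Dsh. Within it LUM averaged 10.5 CPM in shNC and 60.9 in Dsh, and DCN 0.15 and 7.22. COL1A1 went the other way, at 31.0 and 28.3 CPM, as did PDGFRB, at 1.19 and 0.76. The epithelial list summed to 1043 to 1150 CPM in HK2 Dsh. The part of these shifts in the MMP1 values was not tested.

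**Figure D1:**
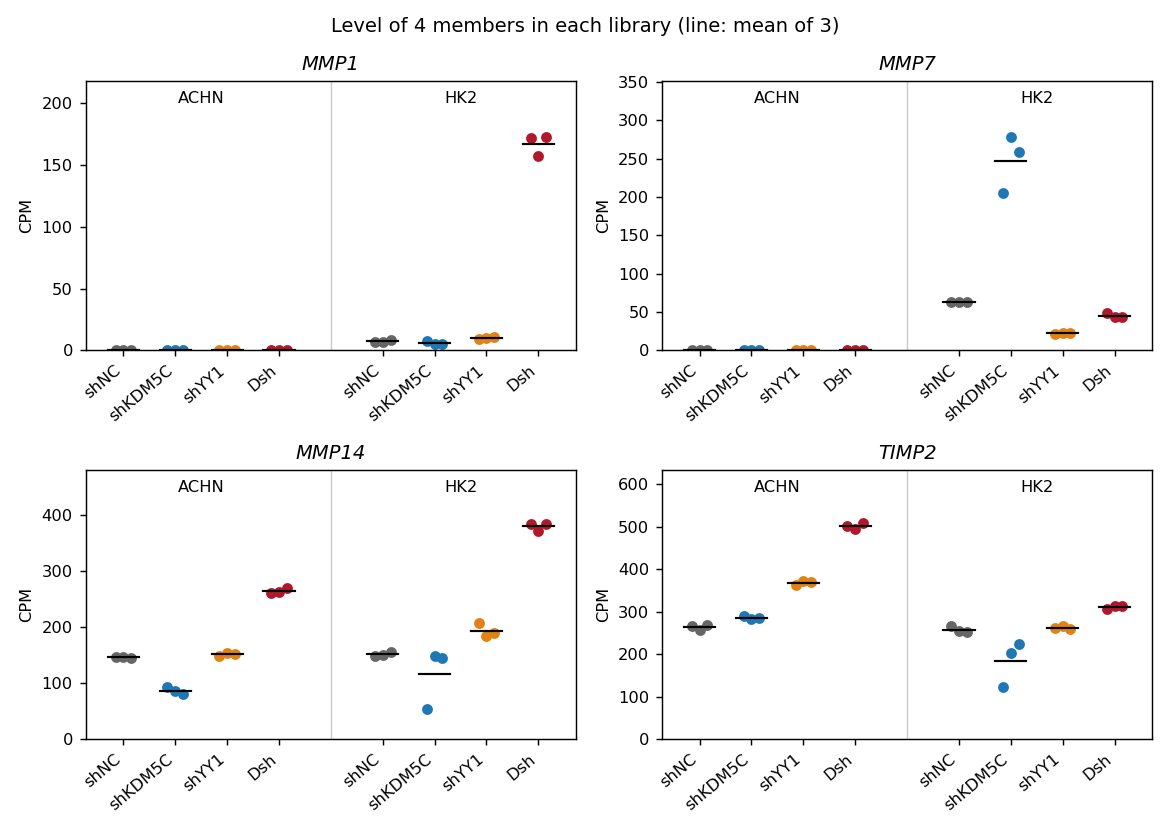
CPM (linear axis) of MMP1, MMP7, MMP14 and TIMP2 in each of the 24 libraries, with 3 points and the mean line per group, ACHN to the left and HK2 to the right. MMP1 sits at 157 to 173 CPM in HK2 Dsh and at 10.4 or below in every other library, MMP7 is highest in HK2 shKDM5C, and the low point of MMP14 and TIMP2 in HK2 shKDM5C is repeat 1.

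MMP7, or matrilysin, a small epithelial protease of the same cluster (chr11:102520508-102530753, minus strand, 6 exon blocks), moved in opposite directions with the single knockdowns of HK2. Its CPM was 63.5, 63.4 and 63.5 in shNC, 205, 279 and 258 in shKDM5C, 21.7, 22.4 and 22.7 in shYY1, and 48.3, 43.0 and 44.0 in Dsh, so that no group overlapped another. It rose with shKDM5C (log2 fold change 1.98 ± 0.13, adjusted p = 0.0076, edgeR quasi-likelihood test with Benjamini-Hochberg adjustment over all genes, as for every adjusted p here), and without repeat 1 of shKDM5C the change was 2.08 (adjusted p = 1.3e-19). With any 1 shNC repeat left out it was no longer called, with adjusted p between 0.094 and 0.098 and a fold change between 1.97 and 1.98. It fell with shYY1 (log2 fold change -1.51 ± 0.07, adjusted p = 1.2e-12) and, less far, with Dsh (-0.48 ± 0.07, adjusted p = 2.5e-07). Set against the single knockdowns, Dsh held less MMP7 than shKDM5C (-2.46 ± 0.15, adjusted p = 0.00059, and -2.56 without repeat 1) and more than shYY1 (1.03 ± 0.08, adjusted p = 4.2e-10). In ACHN the gene gave between 0 and 10 counts a library and was not tested within the line. It held 18 counts in shNC and 3 in shYY1 there, a scaled ratio of 0.17 (counting interval 0.032 to 0.58).

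MMP14, the membrane-anchored MT1-MMP that cuts collagen at the cell surface and activates proMMP2, is at chr14:22836557-22849027 (plus strand, 12 exon blocks) and was well expressed in both lines. In ACHN its CPM was 147, 147 and 145 in shNC, 92.5, 85.0 and 79.9 in shKDM5C, 148, 154 and 152 in shYY1, and 260.0, 263 and 270 in Dsh. It fell with shKDM5C (log2 fold change -0.78 ± 0.04, adjusted p = 5.1e-14), was not called with shYY1 (0.03 ± 0.03, adjusted p = 0.56), and rose with Dsh (0.86 ± 0.04, adjusted p = 3.4e-12). In HK2 the values were 149, 149 and 155 in shNC, 53.8, 148 and 145 in shKDM5C, 207, 183 and 190 in shYY1, and 384, 371 and 383 in Dsh. The 53.8 is repeat 1 of shKDM5C, and repeats 2 and 3 lay just below the shNC range. The shKDM5C change was not called in HK2 (-0.38 ± 0.33, adjusted p = 0.57), and was -0.05 without repeat 1 (adjusted p = 0.49). It rose with shYY1 (0.36 ± 0.05, adjusted p = 1.9e-05, but 0.52 with all HK2 groups in 1 fit) and with Dsh (1.34 ± 0.04, adjusted p = 1.7e-21). Dsh was also above each single knockdown in both lines. In ACHN the difference was 1.64 ± 0.05 from shKDM5C (adjusted p = 7.9e-14) and 0.81 ± 0.04 from shYY1 (adjusted p = 4.6e-11), and in HK2 0.98 ± 0.05 from shYY1 (adjusted p = 2.5e-13). Against shKDM5C in HK2 it was 1.72 ± 0.34 (adjusted p = 0.021), 1.39 without repeat 1 of shKDM5C (adjusted p = 1.4e-16), and with any 1 Dsh repeat left out not called (adjusted p 0.087 to 0.095).

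TIMP2, the inhibitor that also bridges MMP14 and proMMP2, is at chr17:78852977-78925387 (minus strand, 6 exon blocks). CEP295NL lies inside it on the same strand and shares 198 exonic bases, and an unnamed gene on the other strand shares 367. In ACHN its CPM was 266, 258 and 268 in shNC, 289, 283 and 286 in shKDM5C, 364, 372 and 371 in shYY1, and 501, 495 and 510 in Dsh, with no overlap between any groups. It rose slightly with shKDM5C (log2 fold change 0.10 ± 0.03, adjusted p = 0.0070), a call lost when libraries were scaled by total counts (0.06, adjusted p = 0.12) and without shNC repeat 2 (0.08, adjusted p = 0.050). The rise was larger with shYY1 (0.46 ± 0.03, adjusted p = 2.2e-15) and with Dsh (0.93 ± 0.04, adjusted p = 8.2e-13). Dsh of ACHN exceeded shKDM5C by 0.83 ± 0.04 (adjusted p = 1.9e-11) and shYY1 by 0.45 ± 0.04 (adjusted p = 3.0e-08). In HK2 the CPM was 266, 255 and 251 in shNC, 122, 202 and 225 in shKDM5C, 262, 265 and 260.0 in shYY1, and 306, 313 and 315 in Dsh. All shKDM5C libraries lay below shNC, but the change was not called with repeat 1 (-0.48 ± 0.20, adjusted p = 0.32) and was called without it (-0.27, adjusted p = 1.3e-04). The shYY1 value was 0.03 ± 0.05 (adjusted p = 0.71), and Dsh rose by 0.28 ± 0.04 (adjusted p = 1.2e-06). Against shYY1 the Dsh difference in HK2 was 0.26 ± 0.05 (adjusted p = 9.6e-05). Neither passed with all groups in 1 fit (adjusted p = 0.23 and 0.29). Against shKDM5C it was 0.76 ± 0.21 (adjusted p = 0.055), was called by DESeq2 (0.76, adjusted p = 0.010), and was 0.55 without repeat 1 (adjusted p = 4.1e-09).

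Marker lists also moved between the shNC and Dsh libraries of ACHN in which MMP14 and TIMP2 rose. The summed clear cell markers went from between 6.23 and 7.74 CPM in shNC to between 262 and 275 in Dsh. The rise came from ANGPTL4, which went from 5.26 to 269 CPM. NDUFA4L2 went down from 1.42 to 0.69 CPM and CA9 from 0.12 to 0. The epithelial list went from between 2347 and 2411 CPM in shNC to between 1209 and 1377 in Dsh, and the fibroblast list from between 581 and 633 to between 135 and 151. Most of the fibroblast sum was COL1A1, which went from 581 to 134 CPM, and PDGFRB went from 31.5 to 7.63. LUM was at 0 in both groups, COL1A2 was at 0 in shNC, and DCN averaged 0.053 and 0.054 CPM. The part of these shifts in the MMP14 and TIMP2 values was not tested.

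**Figure D2:**
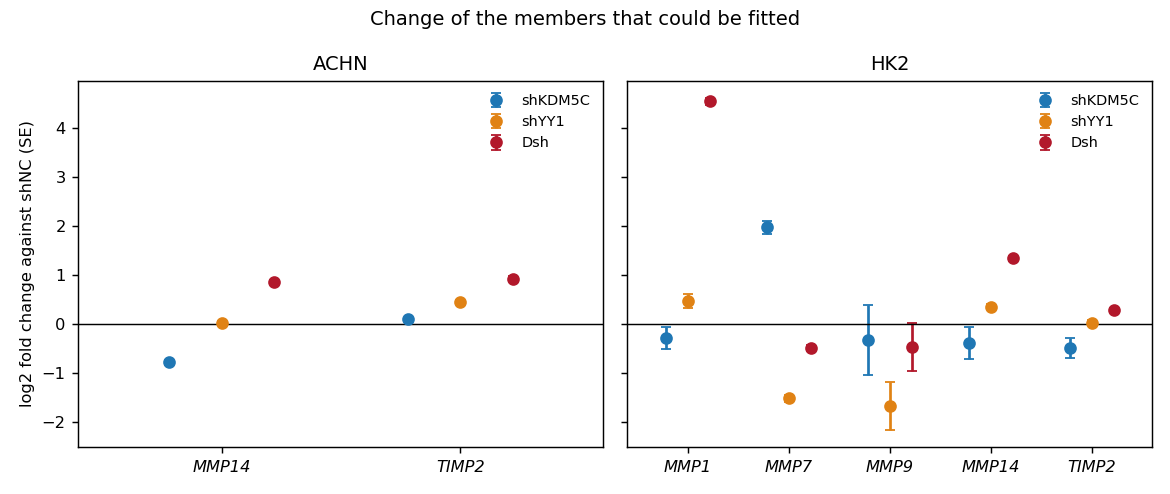
Log2 fold change against shNC (points) with its SE (bars) for the members that could be fitted, by knockdown, in ACHN and HK2. In HK2 the MMP1 point at 4.54 in Dsh stands above all others and MMP7 lies at 1.98 in shKDM5C and at -1.51 in shYY1, while in both lines MMP14 and TIMP2 are highest in Dsh.

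MMP9, or gelatinase B (chr20:46008908-46016561, plus strand, 13 exon blocks), was near the floor. It gave 22, 20 and 18 counts in HK2 shNC, 1, 27 and 19 in shKDM5C, 6, 6 and 5 in shYY1, and 16, 3 and 21 in Dsh. The low library of shKDM5C is again repeat 1. MMP9 was lower with shYY1 in HK2 (log2 fold change -1.68 ± 0.49). It passed the filter there only through its shNC libraries, so no p-value is given for that fall. It is counted as called, but missed the threshold without shNC repeat 1, without shYY1 repeat 3 and with all groups in 1 fit. The changes with shKDM5C (-0.33 ± 0.71, adjusted p = 0.82, and 0.17 without repeat 1) and with Dsh (-0.48 ± 0.49, adjusted p = 0.44) were not called, and the Dsh difference from shKDM5C was -0.16 ± 0.88 (adjusted p = 0.92, and -0.65 without repeat 1). SLC12A5-AS1 on the other strand shares 430 exonic bases with MMP9. ACHN libraries held between 0 and 6 MMP9 counts.

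The remaining members did not pass the filter on low counts in any comparison with shNC. MMP2, or gelatinase A (chr16:55389700-55506691, plus strand), gave 2 counts in all 24 libraries together and TIMP3 (chr22:32801701-32863043, plus strand), the inhibitor that stays bound to the matrix, gave 1. The counts of MMP3, stromelysin 1 (chr11:102835801-102843803, minus strand), were 11, 1 and 2 in ACHN shNC, 8, 1 and 5 in shKDM5C, 10, 10 and 9 in shYY1 and 0, 2 and 0 in Dsh, and between 0 and 4 in HK2. The scaled ratio of Dsh to shNC in ACHN was 0.13 (counting interval 0.014 to 0.56), and most of the shNC counts came from 1 library. MMP10, stromelysin 2 (chr11:102770503-102780628, minus strand), which holds the AP-1 and TATA letters shown above, gave between 0 and 10 counts in every library. Its ratio of Dsh to shNC in HK2 was 1.61 (0.82 to 3.24). MMP13, collagenase 3 (chr11:102942995-102955734, minus strand), gave 8, 7 and 7 counts in HK2 shNC, 7, 2 and 0 in shKDM5C, 0, 0 and 3 in shYY1 and 6, 4 and 6 in Dsh, with a ratio of shYY1 to shNC of 0.15 (0.028 to 0.49). These intervals cover counting error and not the spread between repeats.

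Read together by comparison, 2 of the 10 members passed the filter in ACHN, and both were called with shKDM5C, 1 higher and 1 lower (56.6% of all genes tested were called there), 1 with shYY1 (48.7% of genes) and both with Dsh (62.6% of genes). Both were called between Dsh and shKDM5C (62.5% of genes) and between Dsh and shYY1 (64.6%). In HK2 5 members passed and 4 were tested, MMP1 being left out: 1 was called with shKDM5C (1.32% of genes, and 2 without repeat 1, where 22.3% were called), 3 with shYY1 (29.1%) and 3 with Dsh (49.8%). The 3 with shYY1 include MMP9, which passed the filter there only through shNC. Dsh differed from shKDM5C in 2 (11.9% of genes; 3 without repeat 1) and from shYY1 in 3 of the 3 tested (47.7%). With so few members tested and such shares of all genes called, nothing about the family as a whole is read from these counts.

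To compare levels between genes, CPM was divided by the summed exon length in kilobases (RPKM). In ACHN MMP14 made up 98.7% ± 0.5 (SD, n = 3) of the summed RPKM of the 8 MMPs in shNC and 97.2% or more in each knockdown, and the sum followed MMP14: 33.2 ± 0.5 in shNC, 19.8 ± 1.4 in shKDM5C, 34.4 ± 0.6 in shYY1 and 59.6 ± 1.0 in Dsh. In HK2 the make-up differed by group. In shNC MMP14 held 51.5% ± 0.3, MMP7 41.7% ± 0.7 and MMP1 5.56% ± 0.60 of a sum of 65.6 ± 1.2. In shKDM5C MMP7 held 79.0% ± 4.8 (76.3% ± 0.7 in repeats 2 and 3), and in shYY1 MMP14 held 74.3% ± 1.7. In Dsh MMP1 and MMP14 held 44.7% ± 0.8 each, MMP7 held 10.2% ± 0.5 and the sum was 190 ± 7. The order of RPKM in HK2 shNC was TIMP2 (45.7 ± 1.3), MMP14 (33.8 ± 0.7), MMP7 (27.3 ± 0.034), MMP1 (3.65 ± 0.47) and MMP9 (0.46 ± 0.06), each apart from the next by more than its spread. In HK2 Dsh MMP14 (85.0 ± 1.6) and MMP1 (84.9 ± 4.5) did not differ beyond their spread, and TIMP2 (55.2 ± 0.8) and MMP7 (19.4 ± 1.2) followed.

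Since an active-site inhibitor binds its protease in a complex, the ratio of MMP14 to TIMP2 RPKM was also taken within each library. It was 0.70 ± 0.02 in ACHN shNC, 0.38 ± 0.03 in shKDM5C, 0.52 ± 0.0049 in shYY1 and 0.66 ± 0.01 in Dsh, and in HK2 0.74 ± 0.04 in shNC, 0.76 ± 0.19 in shKDM5C (0.87 ± 0.08 in repeats 2 and 3), 0.93 ± 0.06 in shYY1 and 1.54 ± 0.04 in Dsh. Every knockdown group of ACHN lay below every shNC library, and in HK2 every shYY1 and Dsh library lay above every shNC library. In HK2 shKDM5C repeat 1 was at 0.55, below every shNC library, and repeats 2 and 3 were at 0.92 and 0.81, above every shNC library, whose highest was 0.78. No test was run on the ratio. It shows unequal change of 2 transcripts, not of protein.

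**Figure D3:**
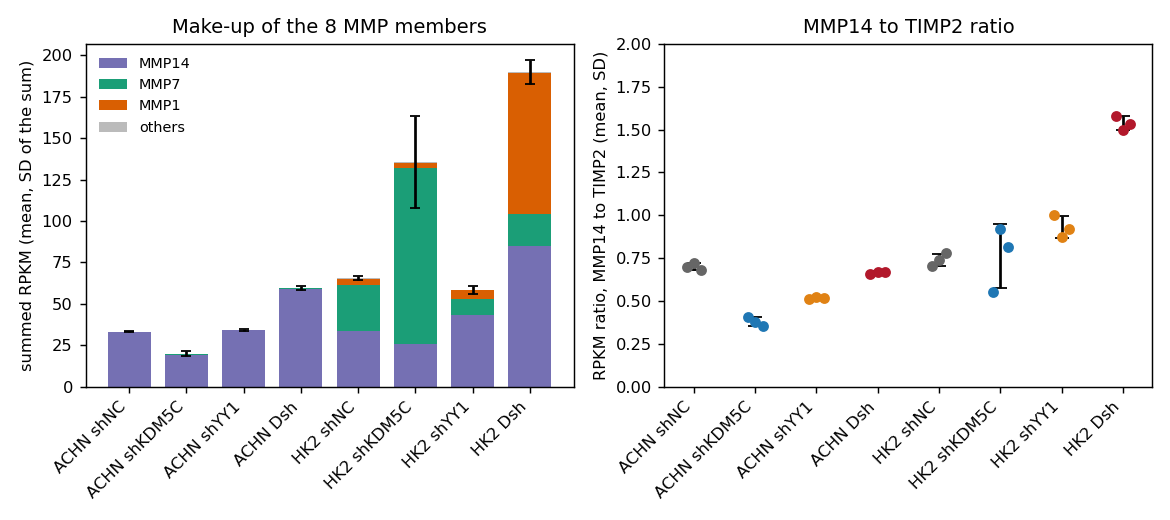
Left, summed RPKM of the 8 MMP members per group (bars are means of 3, the error bar is the SD of the sum), split into MMP14, MMP7, MMP1 and the other 5. Right, the RPKM ratio of MMP14 to TIMP2 in each library, with a bar from the mean minus to the mean plus 1 SD. ACHN bars are nearly all MMP14, MMP7 fills most of HK2 shKDM5C, MMP1 and MMP14 share HK2 Dsh, and the ratio is highest in HK2 Dsh at 1.54.

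Whether the joint knockdown differed from the sum of the single ones was asked with the contrast Dsh minus shKDM5C minus shYY1 plus shNC, on the log2 scale over the 12 libraries of a line. In ACHN both members that could be fitted were above the sum (55.6% of all genes were called in this contrast). For MMP14 the single effects added to -0.73 and Dsh was 0.86, an interaction of 1.59 ± 0.06 (adjusted p = 5.9e-17), or 3.01-fold. For TIMP2 they added to 0.59 and Dsh was 0.93, an interaction of 0.35 ± 0.05 (adjusted p = 1.1e-06). The HK2 interactions stand in the contrast that MMP1 was chosen from and are given with no test. MMP1 had single effects that added to 0.18 and a Dsh effect of 4.54, an interaction of 4.36 ± 0.21, or 20.5-fold, and 4.57 without repeat 1 of shKDM5C. MMP14 had an interaction of 1.36 ± 0.36 (1.04 without that repeat), TIMP2 of 0.73 ± 0.22 (0.54 without it) and MMP9 of 1.52 ± 1.04 (1.03 without it). MMP7 was the member below its sum, at -0.95 ± 0.15 (-1.04 without it), since the rise with shKDM5C and the fall with shYY1 added to 0.46 and Dsh was at -0.49.

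**Figure D4:**
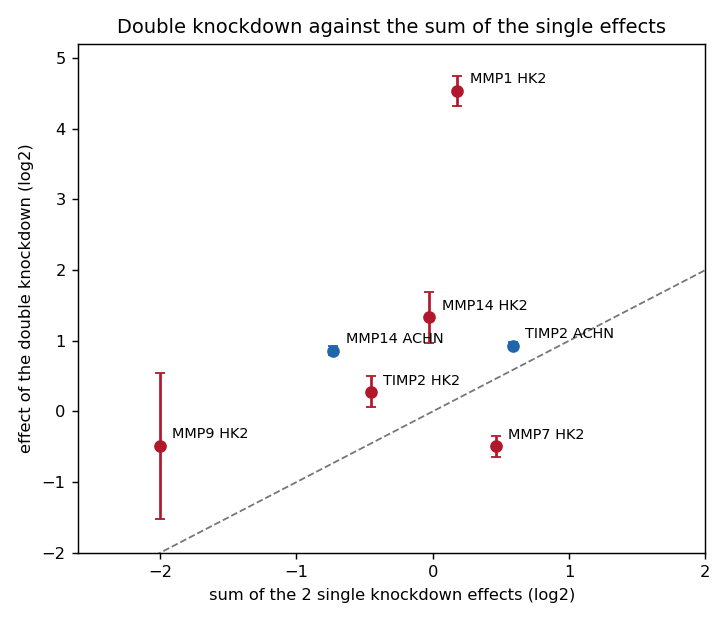
Log2 effect of Dsh against shNC (vertical axis) and the sum of the shKDM5C and shYY1 effects (horizontal axis) for members that could be fitted, in HK2 (red) and ACHN (blue). Bars are the SE of the interaction and the dashed line marks equality: MMP1 lies 4.36 above it, and MMP7 lies below it.

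Between the lines, MMP7 and MMP9 were lower in ACHN shNC than in HK2 shNC, with differences of -7.60 ± 0.14 and -4.18 ± 0.64 on the log2 scale. ACHN shNC held 4, 10 and 4 counts of MMP7 and 2, 1 and 0 of MMP9. Both passed the filter only through HK2, where they are high, so no p-value is given for them. Of all genes 76.6% were called in this comparison. MMP14 (-0.04 ± 0.04, adjusted p = 0.35) and TIMP2 (0.05 ± 0.04, adjusted p = 0.24) did not pass the threshold, though MMP14 did with total counts (-0.10, adjusted p = 0.023). The lines thus had close levels of MMP14 and TIMP2 before knockdown, at 146 and 151 CPM and at 264 and 257 CPM. The shKDM5C effect differed between the lines in 1 of the 4 tested members, MMP7 (11.9% of genes; 3 members without repeat 1 of HK2 shKDM5C), the shYY1 effect in 3 (33.1% of genes) and the Dsh effect in 2 (46.0% of genes). MMP7, and MMP9 among the 3 for shYY1, again passed the filter only through HK2. Their calls set a change in HK2 against an ACHN level near the floor, and nothing about a difference between the lines is read from them. In Dsh the effect on MMP14 was smaller in ACHN than in HK2, with a difference of -0.46 ± 0.06 (adjusted p = 1.5e-07), and that on TIMP2 larger by 0.67 ± 0.06 (adjusted p = 1.1e-10). Within shYY1 the same pair differed by -0.32 ± 0.06 for MMP14 (adjusted p = 1.1e-04) and by 0.44 ± 0.05 for TIMP2 (adjusted p = 7.4e-08). All 4 values share the shNC libraries of their lines.

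The genes whose log2(CPM + 0.5) followed MMP1 most closely over the 12 HK2 libraries, out of 17092 compared, were LIPA (lysosomal acid lipase, Pearson r = 0.991), LRP1 (an endocytic receptor, 0.989), CD44 (the hyaluronan receptor, 0.988), ASNS (asparagine synthetase, 0.988) and SEL1L3 (0.986). The points share libraries and 3 of 12 are Dsh, so the likeness rests on the Dsh level. LIPA went from 78.5 CPM in shNC to 205 in Dsh, CD44 from 211 to 539 and ASNS from 37.0 to 111, all by a smaller fold than MMP1.

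The MMP genes beside MMP1 stayed near the floor in HK2 and were not tested. MMP10, whose start is 17.5 kb away, averaged 0.28 CPM in shNC and 0.46 in Dsh, MMP3 at 45.6 kb gave 4 and 2 counts in all, MMP12 at 76.9 kb gave 3 and 0, and MMP8 and MMP27 none. Of the 7 other genes listed around the cluster 6 passed the filter in HK2. With Dsh there, where 49.8% of all genes were called, 1 fell and 3 rose, with a median log2 fold change of 0.14 against 0.00 over all genes. The inhibitor of apoptosis BIRC3, 481 kb away, was among them in both lines but past the fold threshold (a log2 fold change of 1.5 or more in either direction) in ACHN alone, from 16.6 ± 2.4 to 143 ± 5 CPM (3.11 ± 0.07, adjusted p = 1.0e-16). WTAPP1 fell in ACHN Dsh from 1.12 to 0.37 CPM (-1.53 ± 0.42). It passed the filter only through its shNC libraries, of 16 to 26 counts against 3 to 12 in Dsh, so no p-value is given for it. In ACHN 4 of the 7 rose with Dsh and 3 fell, where 62.6% of all genes were called.

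**Figure D5:**
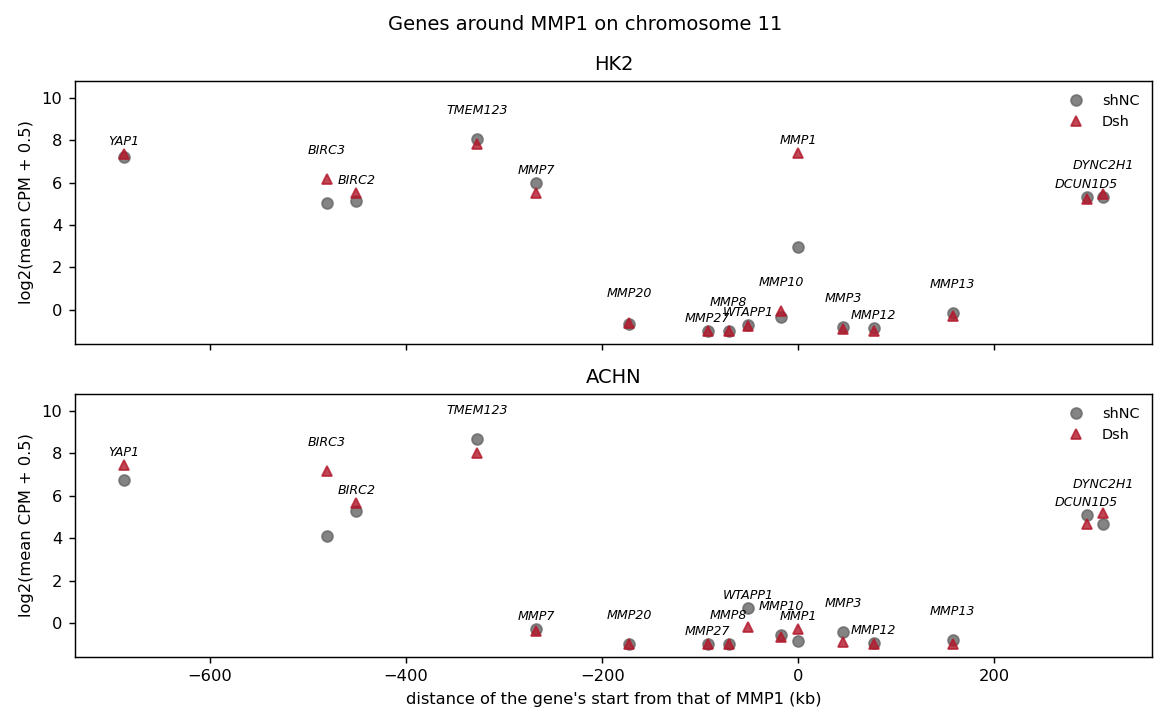
Level, as log2(mean CPM + 0.5), of genes around MMP1 on chromosome 11 in shNC (circles) and Dsh (triangles) of HK2 and ACHN, by distance of each gene's start from that of MMP1 in kb. In HK2 the 2 symbols are far apart for MMP1, and MMP10 and MMP3 beside it stay below 1 CPM in both groups.

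Of the 15 other MMP genes, 8 passed the filter in ACHN and 7 in the HK2 comparison of Dsh with shNC. In HK2 Dsh 3 rose, 3 fell and 1 was not called, where 49.8% of all genes were called. The median log2 fold change was -0.23 against 0.00 over all genes. MMP19, counted among the 3 that rose, went from 0.18 to 1.19 CPM (2.69 ± 0.58), on 2 to 6 counts a library in shNC. It passed the filter only through its Dsh libraries, of 17 to 26 counts, so no p-value is given for it. MMP24, a membrane-type MMP, fell from 75.5 to 22.8 CPM (-1.72 ± 0.09, adjusted p = 2.3e-16). MMP17 fell with shYY1 in HK2 from 2.00 to 0.33 CPM (-2.56 ± 0.44), on 4 to 8 counts a library in shYY1, and was not called with all groups in 1 fit. It passed the filter only through its shNC libraries, of 35 to 38 counts, so no p-value is given for it. In ACHN Dsh, where 62.6% of all genes were called, 3 rose and 3 fell. Among those that fell were MMP11 (stromelysin 3), from 11.9 to 3.45 CPM (-1.79 ± 0.14, adjusted p = 1.6e-09), and MMP28, from 3.76 to 0.79 CPM (-2.18 ± 0.30). MMP28 passed the filter only through its shNC libraries, of 68 to 75 counts against 6 to 30 in Dsh, so no p-value is given for it. With shKDM5C 2 rose and 3 fell in ACHN and 0 of 6 were called in HK2 by edgeR (2 at an unadjusted p under 0.05, 1 by DESeq2, and 1 higher and 3 lower by edgeR without repeat 1), and with shYY1 1 rose and 3 fell in ACHN and 2 fell in HK2.

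Among the 4 other inhibitors (TIMP1, TIMP4, RECK and A2M), TIMP1, which is secreted and binds most MMPs, rose with Dsh in both lines. It went from 38.1 to 57.4 CPM in ACHN (0.59 ± 0.07, adjusted p = 4.9e-07) and from 115 to 138 in HK2 (0.28 ± 0.05, adjusted p = 1.6e-05, but 0.18 with all groups in 1 fit). It rose with shKDM5C in ACHN (0.37 ± 0.06, adjusted p = 4.2e-06) and with shYY1 there (0.20 ± 0.06, adjusted p = 0.0032), and in HK2 gave -0.03 ± 0.18 with shKDM5C (0.15 without repeat 1, adjusted p = 0.045) and -0.10 ± 0.06 with shYY1, neither called with all libraries in. TIMP4 fell in ACHN Dsh from 2.61 to 0.74 CPM (-1.81 ± 0.28, adjusted p = 1.5e-05). In ACHN Dsh 1 of the 3 that passed rose and 2 fell (62.6% of all genes were called), and in HK2 Dsh 1 of 2 rose and 1 fell (49.8%).

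The plasminogen system, whose product plasmin cuts matrix and several proMMPs, was followed through a list of its genes, with no test of the list. With Dsh in HK2 5 of the 6 genes that passed rose and 1 fell (median log2 fold change 1.57) where 49.8% of all genes were called, and 3 rose past the fold threshold. The urokinase gene PLAU went from 254 to 877 CPM (1.80 ± 0.05, adjusted p = 1.1e-23), its receptor PLAUR from 12.1 to 49.4 (2.04 ± 0.09, adjusted p = 2.8e-18) and the tissue activator PLAT from 15.4 to 53.5 (1.81 ± 0.09, adjusted p = 8.3e-17). With shKDM5C in HK2 edgeR called 0 of the 6 (2 at an unadjusted p under 0.05, 1 by DESeq2, and 3 lower by edgeR without repeat 1), where PLAU gave -0.60 ± 0.37 (adjusted p = 0.45, and -0.24 with adjusted p = 2.6e-04 without repeat 1). With shYY1 3 rose in HK2 and 1 fell, while PLAU gave -0.07 ± 0.05 (adjusted p = 0.39).

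In ACHN 4 of the 6 plasminogen genes rose and 2 fell in each comparison with shNC, where 48.7% to 62.6% of all genes were called. PLAU rose from 137 CPM to 310 with shKDM5C (1.16 ± 0.03, adjusted p = 1.5e-19), 292 with shYY1 (1.07 ± 0.03, adjusted p = 8.4e-25) and 365 with Dsh (1.41 ± 0.05, adjusted p = 1.7e-14). SERPINE2 rose with shKDM5C from 8.95 to 41.8 CPM (2.21 ± 0.07, adjusted p = 1.5e-18), and PLAT with Dsh from 17.4 to 79.2 (2.19 ± 0.06, adjusted p = 9.3e-16). SERPINF2, the plasmin inhibitor, fell from 3.40 CPM to 0.53 with shYY1 (-2.71 ± 0.29) and to 0.75 with Dsh (-2.16 ± 0.28). In both comparisons it passed the filter only through shNC, so no p-value is given for it. Its libraries held 53 to 76 counts in shNC, 7 to 14 in shYY1 and 9 to 21 in Dsh.

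Of the proteases and inducers that activate MMPs, a list that holds furin (FURIN) and basigin (BSG), 4 of the 6 that passed rose with Dsh in HK2 and none fell. FURIN was not called there (-0.05 ± 0.05, adjusted p = 0.39), and BSG rose by 0.19 ± 0.04 (adjusted p = 1.8e-04). In that comparison 49.8% of all genes were called. In ACHN Dsh, where 62.6% were called, 2 rose and 2 fell, PCSK5 from 1.19 to 0.23 CPM (-2.36 ± 0.44). PCSK5 passed the filter only through its shNC libraries, of 20 to 26 counts against 3 to 7 in Dsh, so no p-value is given for it. Of the ADAM and ADAMTS proteases, which share the metzincin fold with MMPs, 4 of 10 rose and 2 fell with Dsh in HK2, ADAM12 from 11.7 to 53.3 CPM (2.20 ± 0.10, adjusted p = 4.9e-18), and in ACHN 8 of 10 rose and 2 fell.

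All 15 transcription factors listed for MMP promoters passed the filter. With Dsh 10 rose in HK2 with none falling (median log2 fold change 0.64), where 49.8% of all genes were called. In ACHN Dsh 11 rose with 1 falling (0.38), where 62.6% were called. Those past the fold threshold in HK2 were the AP-1 subunits FOSB, from 4.26 to 16.9 CPM (2.00 ± 0.14, adjusted p = 2.7e-13), and FOSL1, from 36.0 to 117 (1.71 ± 0.07, adjusted p = 7.8e-19), the ETS factor ETV1, from 39.2 to 132 (1.77 ± 0.06, adjusted p = 2.9e-20), and RUNX2, from 18.2 to 57.0 (1.66 ± 0.08, adjusted p = 1.8e-17). In ACHN Dsh they were ETV5, from 7.76 to 29.6 CPM (1.93 ± 0.09, adjusted p = 1.2e-12), and ETV1, from 1.38 to 5.07 (1.88 ± 0.21, adjusted p = 3.7e-07). ETV1 fell with shYY1 in ACHN to 0.41 (-1.74 ± 0.36), on 5 to 9 counts a library against 22 to 32 in shNC. It passed the filter there only through shNC, so no p-value is given for that fall. With shKDM5C 1 of the 15 was called in HK2 (4 higher and 4 lower without repeat 1), and 8 rose and 5 fell in ACHN. With shYY1 5 rose and 4 fell in HK2, and 8 rose and 4 fell in ACHN.

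Genes for matrix substrates went both ways. Of 10 that passed, 5 rose and 2 fell with Dsh in HK2, the laminin chain LAMB3 from 64.7 to 245 CPM (1.93 ± 0.05, adjusted p = 1.5e-23), and 7 fell with shYY1 there. With shKDM5C edgeR called 0 of the 10 in HK2 (4 at an unadjusted p under 0.05, 2 by DESeq2, and 3 higher and 5 lower by edgeR without repeat 1). In ACHN 4 rose and 4 fell with Dsh. The collagen gene COL1A1, a substrate of MMP1 and MMP14, fell from 581 CPM in ACHN shNC to 49.4 with shKDM5C (-3.57 ± 0.04, adjusted p = 7.6e-28), 158 with shYY1 (-1.90 ± 0.03, adjusted p = 1.8e-31) and 134 with Dsh (-2.11 ± 0.05, adjusted p = 2.0e-16). The anchoring collagen COL7A1 fell with Dsh from 334 to 104 CPM (-1.68 ± 0.06, adjusted p = 7.2e-14), and fibronectin, FN1, fell with shYY1 from 3351 to 876 (-1.96 ± 0.03, adjusted p = 5.9e-33). FN1 averaged 2102 CPM with shKDM5C and 6181, above shNC, with Dsh. These lists were chosen with earlier results of these data known, and their counts are descriptions. Beside them, 56.6%, 48.7% and 62.6% of all genes were called in ACHN with shKDM5C, shYY1 and Dsh. In HK2 the shares were 1.32% (22.3% without repeat 1), 29.1% and 49.8%.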

How the data were processed

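The deposited values are raw counts of read pairs per Ensembl release 84 gene (GRCh38), 1 table per library, which the authors made by aligning paired reads with HISAT2 2.0.5 to hg38 and counting with featureCounts. The submitters' notes name version 1.5.0-p3 and the file headers 2.0.1 with paired counting and no strand option. The study's own comparisons used DESeq2.

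Groups came from the labels. Members were found by symbol. Genes were filtered with filterByExpr and tested with edgeR 4.0.16 (R 4.3.3): TMM scaling, quasi-likelihood F test, Benjamini-Hochberg adjustment over all genes of each fit. A gene was called (rose, fell, differed) at an adjusted p under 0.05, and was past the fold threshold if its log2 fold change was also 1.5 or more in either direction. Pairwise tests used the 2 groups compared, interactions the 12 libraries of a line, and differences between lines shNC and 1 knockdown of both. SE is the log2 fold change divided by the root of F. CPM used TMM over all 24 libraries, and RPKM divides it by summed exon length. Counting intervals are exact conditional binomial ones at 95%. The fits were tested on simulated data. Named genes were all 10 members, genes of 8 related lists past the fold threshold against shNC with at least 1 CPM in the higher group (the 4 largest per list and comparison), TIMP1 and PLAU, and the 5 genes most correlated with MMP1 over the HK2 libraries. A further gene that this rule names is not reported here. Members and lists were chosen with earlier results of these data known. Alternatives were DESeq2 1.42.0, other scalings and filters, all groups in 1 fit, a replicate block, and each library left out. List counts, RPKM shares and ratios without repeat 1 of HK2 shKDM5C were added after seeing the data. Libraries held 15926561 to 24272298 counts.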

Additional observations from a re-analysis of the deposited data

Results flagged for a closer look

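The effect of a knockdown on MMP14 and TIMP2 differed between ACHN and HK2 by a test of the difference itself (edgeR quasi-likelihood test, adjusted over all genes, ACHN minus HK2 on the log2 scale). MMP7 and MMP9 also passed the threshold. They passed the filter on low counts only through HK2, where they are high, so no p-value is given for them. With shKDM5C the MMP7 difference was -1.94 ± 0.47 (SE), and -2.05 without repeat 1 of HK2 shKDM5C, where ACHN held at most 10 counts a library. The threshold was missed without ACHN shKDM5C repeat 1 (-1.70), without its repeat 3 (-1.94) and without ACHN shNC repeat 2 (-1.36). With shYY1 the MMP9 difference was 3.31 ± 1.05, on 3 counts in ACHN shNC. The threshold was missed without ACHN shNC repeat 3 (2.79) and without ACHN shYY1 repeat 3 (2.59).

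With shYY1 MMP14 differed by -0.32 ± 0.06 (adjusted p = 1.1e-04), having risen in HK2 and not been called in ACHN. TIMP2 differed by 0.44 ± 0.05 (adjusted p = 7.4e-08), having risen in ACHN and not been called in HK2. With Dsh both rose in each line, MMP14 less in ACHN with a difference of -0.46 ± 0.06 (adjusted p = 1.5e-07) and TIMP2 more with 0.67 ± 0.06 (adjusted p = 1.1e-10). Without repeat 1 of HK2 shKDM5C the shKDM5C effect also differed for MMP14 (-0.73, adjusted p = 1.4e-10) and TIMP2 (0.38, adjusted p = 2.7e-06). With all 8 groups in 1 fit 4 of these calls were lost: MMP9 (3.33), MMP14 (-0.31, adjusted p = 0.55) and TIMP2 (0.45, adjusted p = 0.082) with shYY1, and MMP14 with Dsh (-0.47, adjusted p = 0.21). Groups of 3 libraries are too small for the check of single outlying samples.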

How the results depend on the processing

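Across the alternatives that leave out no library, 370 of 387 member values kept their direction and their side of the threshold, and 430 of 456 did when 1 library was left out. 2 and 7 changed sign, none called before or after. They were TIMP2 with total counts, at -0.0088 with shYY1 in HK2 (0.03 in the report) and at -0.012 for ACHN against HK2 shNC (0.05), and, over single omitted libraries, MMP9 in HK2 with shKDM5C (-0.89 to 0.17) and in Dsh against shKDM5C (-0.65 to 0.42), and MMP7 in the Dsh difference between lines (-0.24 to 0.75). The count of members called changed by over 1.5 times in these cases. With total counts ACHN shKDM5C gave 1 (2 in the report), and without any filter ACHN shYY1 gave 2 (1). With all groups in 1 fit, HK2 shYY1 gave 1 (3), and the differences between lines gave 2 for shKDM5C (1), 0 for shYY1 (3) and 1 for Dsh (2). Over all genes, calls moved by over 1.5 times in 7 comparisons. HK2 shKDM5C had 214 in the report, 405 without a filter, 807 by DESeq2, 1340 with all groups and 0 with the replicate block (1770 at an unadjusted p under 0.05). Dsh against shKDM5C in HK2 had 1901, then 3124 by DESeq2, 4647 with all groups and 797 with the block, and the shKDM5C difference between lines had 2140, then 3979 with all groups and 957 with the block. With all groups HK2 shYY1 went from 4671 to 927, Dsh from 8073 to 3914, Dsh against shYY1 from 7609 to 3765 and the shYY1 difference from 5969 to 2745. The fit of all groups holds repeat 1 of HK2 shKDM5C in every comparison that involves HK2, and its part in these counts was not tested. With a replicate block HK2 shKDM5C gave 0 (1), MMP7 being at 1.97 with adjusted p = 0.067. The block changed no other count of members by that much, and it could not be fitted for ACHN against HK2 shNC, where a block within each line leaves no residual degrees of freedom. Same-numbered libraries deviated together with correlations of -0.117 to 0.0437, so the numbers do not pair samples. Leaving out 1 library gave 1 to 2 for ACHN shKDM5C, 0 to 2 for HK2 shKDM5C, 1 to 3 for Dsh against shKDM5C in HK2 and 0 to 3 for the shKDM5C difference between lines. TIMP1, which is not a member, changed sign into a call: with shKDM5C in HK2 its lowest and highest values over single omitted libraries were -0.13 and 0.15, the latter (adjusted p = 0.045) without shKDM5C repeat 1. The KDM5C fall with shKDM5C in HK2 missed the threshold with the block (adjusted p = 0.082) and without 1 of 5 libraries (0.063 to 0.15). The MMP1 interaction in HK2, for which the gene was picked, lay between 4.25 and 4.57 in all of its alternatives, which is a description and no test. Counts near 0 limit MMP2, MMP3, MMP9, MMP10, MMP13 and TIMP3 in both lines, and MMP1 and MMP7 in ACHN.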
